A study of Homo sapiens with 14 samples.

Results

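The replication-dependent, or clustered, histone genes were followed in OVCAR-3, an established human ovarian carcinoma cell line, as it became resistant to PHA-533533, an inhibitor of the cell cycle kinase CDK2. They were taken as the array rows that name a single gene of the HIST1, HIST2 or HIST3 clusters or a current name that replaced these, with the row of highest mean kept for each gene. This gave 57 of the 18398 genes measured, namely 6 linker histone H1 genes and 14 H2A, 17 H2B, 9 H3 and 11 H4 genes. Of the 57, 49 lie on chromosome 6, 8 lie on chromosome 1, and 1, H2BC19P, is a pseudogene. The 57 genes had 1 such row each.

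RNA was measured on 14 Affymetrix whole-transcript arrays. Of these, 5 are of selected cells, which are resistant sublines R1, R3, R5, R6 and R7 at passage 5, grown in 4 µM PHA-533533. Another 5 are of stable cells, the same sublines at passage 10 or later, grown in 0 µM. The last 4 are of parental OVCAR-3 cells grown in 0 µM. The sublines were derived separately from each other, each has 1 selected and 1 stable array, and the labels do not say whether a subline is a clone. Inhibitor and passage changed together between selected and stable arrays, so their parts cannot be told apart. Whether the 4 parental replicates came from separate cultures is not stated, and p-values that involve them measure spread between samples that may be only technical. All 10 epithelial markers listed for ovarian carcinoma were above background, against 2 of 6 fibroblast, 2 of 5 leukocyte and 0 of 5 endothelial markers.

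Clustered histone genes supply the histones that package newly copied DNA. H2A, H2B, H3 and H4 form the core of the nucleosome, and H1 binds the DNA that links nucleosomes. Their mRNAs are made in S phase and, unlike other mRNAs, end in a stem-loop that the protein SLBP binds, in place of a poly(A) tail. Transcription of the clusters is driven by NPAT, which cyclin E and CDK2 phosphorylate as cells enter S phase. Histone transcription thus lies downstream of the kinase that PHA-533533 inhibits, in a line that carries extra copies of CCNE1, which encodes cyclin E1. Whole-transcript labelling primes along the RNA rather than from a poly(A) tail, so mRNAs with either kind of end can be seen. In bulk RNA, fewer cells in S phase and less histone RNA per cell cannot be told apart.

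Promoter sequences from RefSeq (GRCh38.p14) matched 51 of the 57 genes. Short motifs were searched on both strands within the 250 bases upstream of the start. The octamer ATTTGCAT, the site of the factor OCT1, stood in 10 of 13 H2A and 13 of 16 H2B promoters and in 0 of 6 H1, 0 of 7 H3 and 0 of 9 H4 promoters, against 1.66% of 27305 promoters of all genes. The letters AAACACA, known as the AC box of H1 genes, stood in 6 of 6 H1 promoters and in 0 of the promoters of the other classes, against 4.95% of all promoters. The letters GGTCCG, part of the H4 element that the factor HINFP reads, stood in 8 of 9 H4 promoters, in 0 of 6 H1, 1 of 13 H2A, 1 of 16 H2B and 1 of 7 H3 promoters, and in 9.33% of all promoters. The letters CCAAT stood in every matched H1, H2A, H2B and H3 promoter and in 3 of 9 H4 promoters, against 33.0% of all promoters. The letters TATAAA stood in 34 of 51, against 11.1%. A motif match is a description of the letters and does not show that a factor binds there.

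The 250 bases upstream of the start are given below, 5′ to 3′ on the strand of the gene, for 5 genes on which the results turn. H2BC12 and H2BC21 are the genes that passed a test, H4C8 and H1-6 have the next largest differences between selected and stable cells, and H2BC9 is an H2B gene with an octamer of its own that did not pass. Capitals mark the motifs named above on either strand. In H2BC12 the forward and reverse TATAAA matches share letters, and in H2BC21 a reverse GGTCCG match shares letters with CCAAT.
H2BC12, chr6:27146859-27147108, minus strand: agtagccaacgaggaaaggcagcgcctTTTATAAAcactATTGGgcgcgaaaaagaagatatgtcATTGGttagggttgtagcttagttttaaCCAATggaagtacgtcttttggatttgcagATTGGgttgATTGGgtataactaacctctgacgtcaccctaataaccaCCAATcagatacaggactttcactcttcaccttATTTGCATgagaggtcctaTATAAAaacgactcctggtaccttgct
H2BC21, chr1:149886683-149886932, minus strand: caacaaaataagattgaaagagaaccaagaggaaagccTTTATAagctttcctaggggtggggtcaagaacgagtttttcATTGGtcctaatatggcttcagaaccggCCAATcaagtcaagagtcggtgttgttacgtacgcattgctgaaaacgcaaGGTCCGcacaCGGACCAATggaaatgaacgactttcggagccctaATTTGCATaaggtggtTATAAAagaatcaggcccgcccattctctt
H2BC9, chr6:26251364-26251613, plus strand: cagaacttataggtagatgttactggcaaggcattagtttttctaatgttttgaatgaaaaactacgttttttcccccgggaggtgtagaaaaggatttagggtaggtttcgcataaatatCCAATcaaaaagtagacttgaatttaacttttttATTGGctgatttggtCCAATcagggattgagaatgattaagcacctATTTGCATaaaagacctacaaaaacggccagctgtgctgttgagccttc
H4C8, chr6:26285535-26285784, minus strand: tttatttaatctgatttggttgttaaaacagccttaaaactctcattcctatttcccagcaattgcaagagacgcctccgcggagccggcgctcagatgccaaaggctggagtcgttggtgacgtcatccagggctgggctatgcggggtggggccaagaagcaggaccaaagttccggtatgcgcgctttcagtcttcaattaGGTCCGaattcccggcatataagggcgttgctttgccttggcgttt
H1-6, chr6:26108136-26108385, minus strand: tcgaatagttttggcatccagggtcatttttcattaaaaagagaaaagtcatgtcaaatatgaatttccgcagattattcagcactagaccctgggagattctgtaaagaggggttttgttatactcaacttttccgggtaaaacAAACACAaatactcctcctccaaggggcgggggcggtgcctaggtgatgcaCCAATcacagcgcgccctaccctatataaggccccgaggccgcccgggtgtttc

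Deposited values are log2 signals. Signal depends on the probes of a row, so values are compared between arrays and never between genes. A row was counted as above background where its mean over the 14 arrays exceeded 7.75, the 95th percentile of the means of 337 genes of olfactory receptors, a family not expected in ovarian cells. This held for 31 of the 57 genes, made up of 3 of 6 H1, 7 of 14 H2A, 9 of 17 H2B, 6 of 9 H3 and 6 of 11 H4 genes. Near-identical coding sequences within a class mean that a row may also catch RNA of its relatives, so a value assigned to 1 gene is uncertain to that extent. The median deviation of the 57 genes from the parental mean ran from -0.020 to 0.066 over the selected arrays, from -0.064 to 0.051 over the stable arrays and from -0.073 to 0.024 over the parental arrays. These ranges overlap. Single arrays stood out more. The selected array of R3 was the lowest of its group in 19 of the 57 genes and the highest in 18, that of R1 was the highest in 22, the stable array of R1 was the highest in 23, and parental replicate 3 was the lowest in 30. No share over all genes was worked out for these counts, so they do not set the histone genes apart. Parental replicate 3 also had the highest mean of the olfactory receptor genes among the 14 arrays, at 6.71. The spread over all 14 arrays differed between genes. H2BC1, an H2B gene known from testis, spanned 0.19 log2 units, H2AC13 spanned 0.29, H4C13 spanned 0.29 and H1-1 spanned 0.31, and none of these 4 rows was above background. H3C2, an H3 gene above background, spanned 0.53, and the widest ranges of the H2A and H2B genes were those of H2AC15 at 0.996 and H2BC21 at 1.81. The 4 rows below background and H3C2 and H2AC15 all overlapped between the 3 groups. The map of deviations shows both the small size of most differences and the few genes that stood out.

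**Figure D1:**
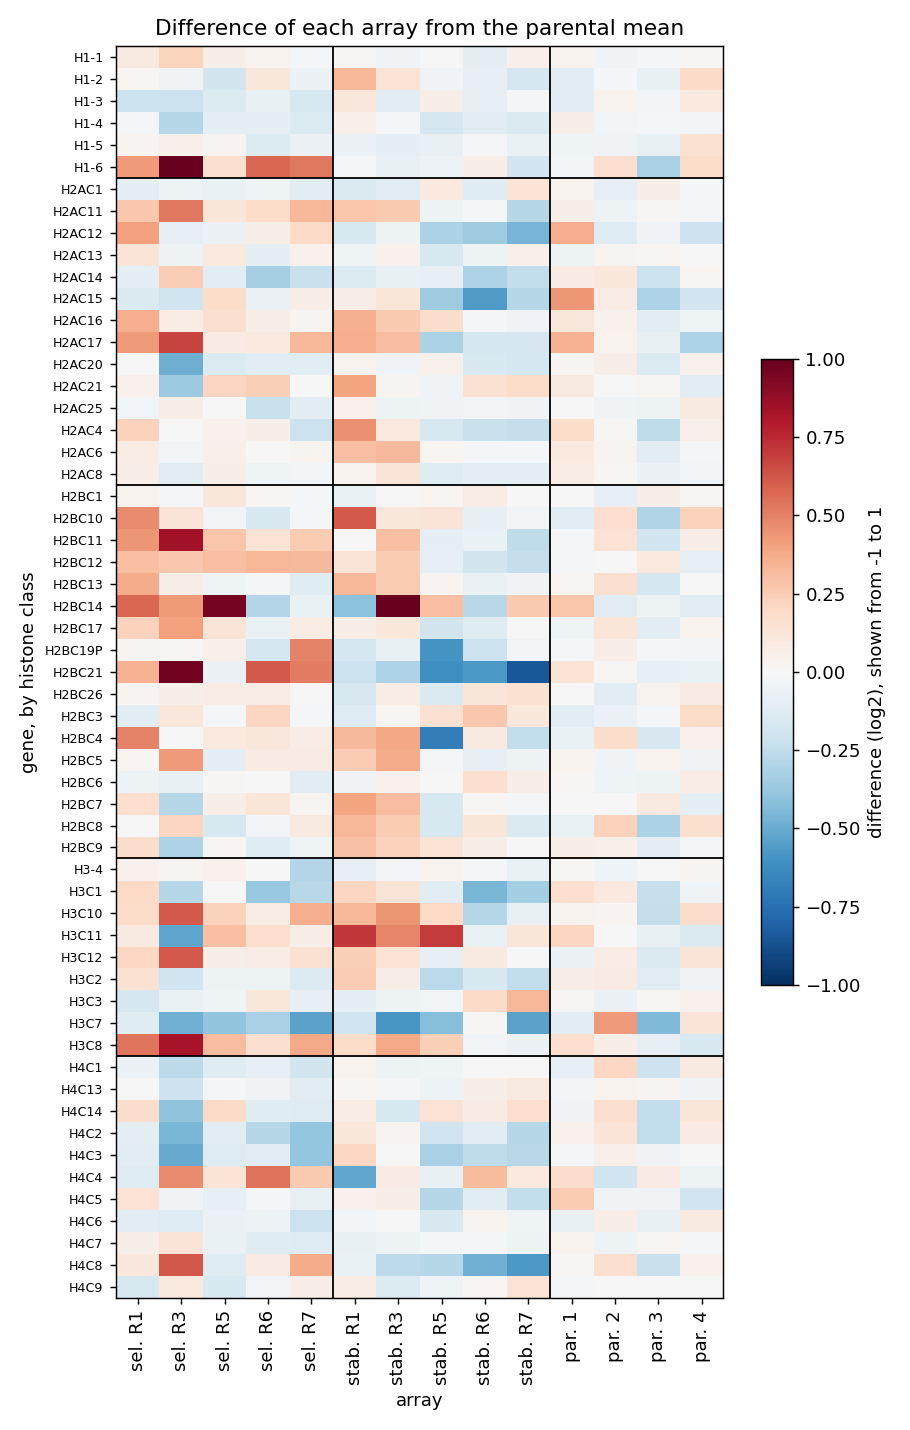
Difference of each of the 14 arrays (columns, in 3 groups: selected, stable and parental) from the parental mean for each of the 57 genes (rows, by class), in log2 units on a colour scale that ends at -1 and 1. Most cells are pale, while H2BC21 is high on 4 of the 5 selected arrays and low on all 5 stable arrays, and H1-6 is highest on the selected array of R3.

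Selected against parental cells asks how histone RNA in resistant cells growing in the inhibitor differs from that in the cells they came from. Only H2BC12, an H2B gene, passed, and it was higher in selected cells. It measured 12.80, 12.78, 12.81, 12.84 and 12.83 in the selected arrays of R1, R3, R5, R6 and R7, against 12.50, 12.50, 12.60 and 12.42 in the parental arrays. The 5 sublines lay within a narrow band above all 4 parental values. The difference was 0.31 on the log2 scale (SE 0.065, adjusted p = 0.0177 by limma), with means of 12.81 ± 0.023 in the 5 selected arrays and 12.50 ± 0.075 in the 4 parental arrays (± SD). The difference changed little when 1 parental array was left out, but the call could be lost. Without parental replicate 1 the difference was 0.30 (adjusted p = 0.0531), and without parental replicate 4 it was 0.28 (adjusted p = 0.0734). The call was also lost when all 14 arrays shared 1 fit (adjusted p = 0.0630).

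Of the 57 genes, 1 was called higher, where 5.03% of all genes tested were, and 0 were called lower, where 1.89% were, which together is 6.92% of all genes. An unadjusted p under 0.05 was reached by 12 of the 57, against 20.3% of all genes. Groups of arrays that do not overlap were found for 2 genes with all selected arrays above all parental arrays, H2BC12 and H2AC11, against 6.81% of all genes, and for 1 gene below, H4C3, against 2.96%. Over the 57 genes the median difference was 0.022, against -0.013 over all genes, and it was -0.016 without parental replicate 3. Differences of 42 genes, or 73.7%, were within 0.2 of zero, against 75.5% of all genes. By class, 15 of 17 H2B genes had a difference above 0 (median 0.082), as did 8 of 14 H2A (median 0.023), 2 of 6 H1 (median -0.024), 4 of 9 H3 (median -0.038) and 2 of 11 H4 genes (median -0.058). Of all 18398 genes, 8441 had a difference above 0. With quantile normalization 13 H2B and 3 H4 genes were above 0, and the H2A median turned to -0.036. These counts are descriptions, since genes on the same arrays are not independent.

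**Figure D2:**
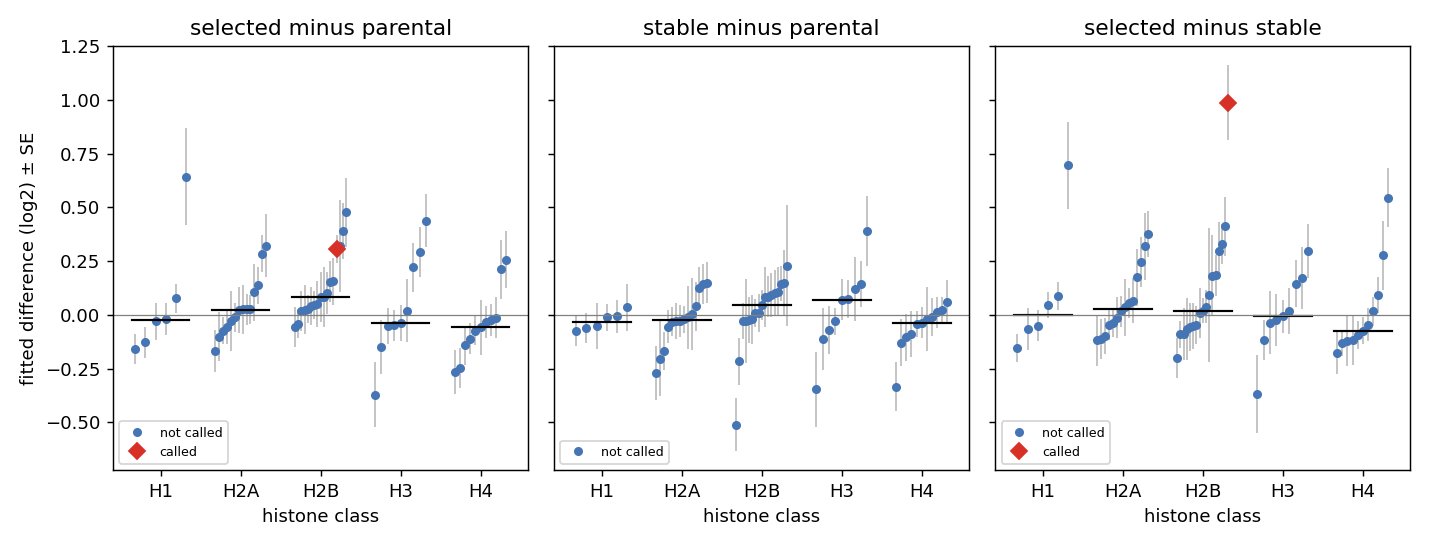
Fitted log2 difference (points, with bars of 1 SE) of each of the 57 genes, sorted within its histone class, for selected minus parental, stable minus parental and selected minus stable. Black lines mark class medians, which all lie within 0.1 of zero, and red diamonds mark the 2 genes that passed, H2BC12 in the first panel and H2BC21 in the third.

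The largest positive differences that did not pass were those of H1-6, H2BC21 and H3C8. H3C8, an H3 gene, measured 9.63, 9.92, 9.41, 9.26 and 9.48 in the selected arrays of R1, R3, R5, R6 and R7, against 9.27, 9.17, 9.02 and 8.95 in the parental arrays. Only the R6 value fell within the parental range. The difference was 0.44 (SE 0.13, adjusted p = 0.0574 by limma), and it passed without the selected array of R6, at 0.51 (adjusted p = 0.0269). H2AC11, an H2A gene, ran from 8.82 to 9.23 in selected arrays, against 8.65 to 8.76 in parental arrays. These groups did not overlap, yet the difference of 0.28 did not pass (adjusted p = 0.0733 by limma). H1-6 encodes an H1 known from testis, and its row was below background by the rule above.

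The largest negative differences belonged to H3 and H4 genes, and none passed. H4C3, an H4 gene, measured 12.97, 12.58, 12.95, 12.97 and 12.69 in selected arrays, in the same subline order, against 13.07, 13.13, 13.05 and 13.08 in parental arrays. All selected arrays lay below all parental arrays, with R3 and R7 lowest. The difference was -0.25 (SE 0.093, adjusted p = 0.146 by limma). H4C2 differed by -0.27 (SE 0.10, adjusted p = 0.163). It passed with quantile normalization, at -0.345 (adjusted p = 0.0452), and with array weights, at -0.316 (adjusted p = 0.0482). H3C7 differed by -0.37 (SE 0.15, adjusted p = 0.181), with 9.53 to 9.94 in selected arrays and a wide 9.62 to 10.49 in parental arrays. Its size rested on the parental arrays, since without parental replicate 3 it was -0.52 and passed (adjusted p = 0.0462), and without parental replicate 2 it was -0.23 (adjusted p = 0.354). H1-4, an H1 gene, ran from 13.54 to 13.81 in selected and from 13.80 to 13.89 in parental arrays, a difference of -0.13 (adjusted p = 0.372).

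Stable against parental cells asks what remained after passage without the inhibitor. None of the 57 genes passed by limma, where 0.00544% of all genes did, and 3 of the 57 had an unadjusted p under 0.05, against 6.09% of all genes. These were H2BC21, H4C8 and H3C11. The median difference was -0.012, against -0.0038 over all genes, and 49 genes, or 86.0%, were within 0.2 of zero, against 87.9% of all genes. All stable arrays lay above all parental arrays for 0 of the 57, where that held for 0.826% of all genes, and below them for 2, H2BC21 and the pseudogene H2BC19P, where it held for 1.42%. H2BC12, called in selected cells, measured 12.64, 12.75, 12.42, 12.32 and 12.27 in the stable arrays of R1, R3, R5, R6 and R7, which surround the parental values. Its difference was -0.024 (SE 0.11, adjusted p = 0.999 by limma).

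H3C11, an H3 gene, measured 12.14, 11.93, 12.14, 11.38 and 11.56 in the stable arrays of R1, R3, R5, R6 and R7, against 11.66, 11.44, 11.37 and 11.29 in the parental arrays. R1, R3 and R5 lay above every parental array, while R6 and R7 lay among them. The difference was 0.39 (SE 0.16, adjusted p = 0.756 by limma). H2BC14, an H2B gene, had the most scattered stable values, at 8.34, 10.01, 9.05, 8.47 and 9.01 in the same order, against 9.03, 8.63, 8.70 and 8.63 in the parental arrays. The stable array of R3 alone set the sign of its difference, which was 0.23 (adjusted p = 0.999 by limma) and -0.030 without that array. Without the stable array of R1 it was 0.39, and without that of R6 it was 0.36. H3C7 differed by -0.35 (adjusted p = 0.856), and by -0.21 without parental replicate 2. H2AC16, an H2A gene, differed by 0.15 (adjusted p = 0.965), and by 0.099 without the stable array of R1.

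Selected against stable sets each subline in the inhibitor beside itself at a later passage without it. H2BC21, an H2B gene on chromosome 1, was the gene that passed, and it was higher in selected cells. It measured 10.69, 11.30, 10.28, 10.95 and 10.85 in the selected arrays of R1, R3, R5, R6 and R7, against 10.13, 10.03, 9.73, 9.77 and 9.49 in their stable arrays. The 2 groups did not overlap, and the selected value was the higher in 5 of 5 sublines, by 0.56, 1.27, 0.56, 1.19 and 1.36 in that order. The fitted difference was 0.99 (SE 0.17, adjusted p = 0.0207 by limma). In the parental arrays H2BC21 measured 10.47, 10.35, 10.26 and 10.27, which is below 4 of the 5 selected arrays and above all 5 stable arrays. Neither difference from parental cells passed, with 0.48 (SE 0.16, adjusted p = 0.104) in selected and -0.51 (SE 0.12, adjusted p = 0.340) in stable cells. Without the selected array of R5 the difference of selected from parental cells passed, at 0.61 (adjusted p = 0.0155). With array weights the difference of stable from parental cells passed, at -0.66 (adjusted p = 0.0132 by limma). Both of these comparisons use the same 4 parental arrays.

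The call of H2BC21 depended on single arrays although its size changed little. Without the selected array of R7 the difference was 0.98 (adjusted p = 0.0635), without the stable array of R5 it was 0.96 (adjusted p = 0.0562) and without the stable array of R7 it was 0.90 (adjusted p = 0.0560). With both arrays of a subline left out it was 0.92 without R3 (adjusted p = 0.0576), 0.94 without R6 (adjusted p = 0.0907) and 0.89 without R7 (adjusted p = 0.151). With subline as a replicate block it passed at adjusted p = 0.0102. The mean of the olfactory receptor genes, a measure of background, ran from 6.06 to 6.60 in selected and from 6.18 to 6.69 in stable arrays, and was lower in the selected array of each subline. With that mean as a covariate and no block, H2BC21 passed, at 0.88 (adjusted p = 0.0281). With it as a covariate beside the block, a setting added after seeing the data, H2BC21 differed by 0.78 and did not pass (adjusted p = 0.553), nor did any other of the 57 genes. The share of all genes that passed in this setting is not given, so the loss does not set histone genes apart. CDKN1A, E2F1 and FEN1, S phase genes described below, lost their calls in it too (adjusted p = 0.640, 0.746 and 0.677 by limma).

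**Figure D3:**
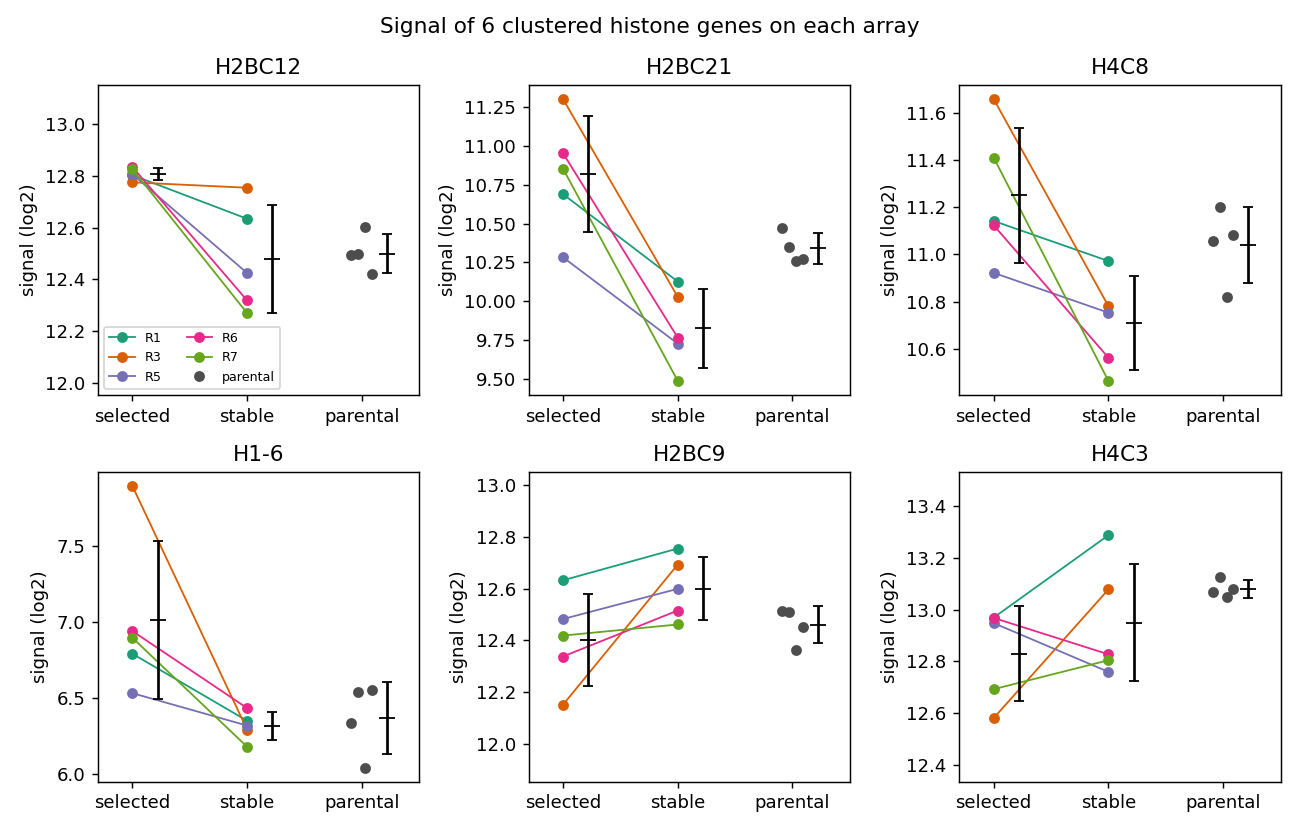
Log2 signal of H2BC12, H2BC21, H4C8, H1-6, H2BC9 and H4C3 on each array, with coloured lines joining the selected and stable arrays of 1 subline, grey points for the 4 parental arrays, and bars for the mean and SD of each group. Axes do not start at 0 and differ between panels. H2BC21 falls below its selected value on the stable array of all 5 sublines, whereas H2BC9 is higher on the stable array of all 5.

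Of the 57 genes, 1 was called higher in selected than in stable cells, where 1.54% of all genes were, and 0 were called lower, where 0.614% were, together 2.16% of all genes. An unadjusted p under 0.05 was reached by 9 of the 57, against 15.3% of all genes. All selected arrays lay above all stable arrays for 3 genes, H2BC21, H2BC12 and H1-6, where that held for 2.83% of all genes, and below them for 1, H4C1, where it held for 1.33%. The median difference was 0.010, against 0.0029 over all genes, and 44 genes, or 77.2%, were within 0.2 of zero, against 77.9% of all genes. With subline as a block, 3 of the 57 passed, all higher in selected cells, where 4.92% of all genes passed in either direction. These were H2BC21, H2BC11 at 0.41 (adjusted p = 0.0249, and 0.154 without the block) and H4C8 at 0.55 (adjusted p = 0.0459, and 0.0677 without the block). The row of H2BC11 was not above background.

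H4C8, an H4 gene, measured 11.14, 11.66, 10.92, 11.12 and 11.41 in the selected arrays of R1, R3, R5, R6 and R7, against 10.97, 10.78, 10.75, 10.56 and 10.46 in their stable arrays. The groups touched only where the selected array of R5 lay below the stable array of R1. The selected value was the higher in 5 of 5 sublines. Without the stable array of R1 the difference passed without the block too, at 0.61 (adjusted p = 0.0327). Parental arrays of H4C8 ran from 10.82 to 11.20, and the difference of stable from parental cells was -0.33 (SE 0.11, adjusted p = 0.610 by limma). With array weights the latter was -0.435 and passed (adjusted p = 0.0381).

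H2BC12 differed by 0.33 (SE 0.093, adjusted p = 0.0960 by limma) between selected and stable cells, and passed without the stable array of R1, at 0.37 (adjusted p = 0.0495), and without that of R3, at 0.40 (adjusted p = 0.0386). Its selected values barely varied, so the spread came from the stable arrays, where R3 was high and R7 low. H1-6 measured 6.79, 7.89, 6.53, 6.94 and 6.90 in selected arrays, in the order R1, R3, R5, R6 and R7, against 6.35, 6.29, 6.32, 6.43 and 6.18 in stable arrays. The R3 value stood well above the rest. The difference was 0.70 (SE 0.20, adjusted p = 0.106 by limma), and against the parental arrays, at 6.34, 6.54, 6.04 and 6.55, it was 0.64 (SE 0.23, adjusted p = 0.120). Without the selected array of R3 the difference from parental cells was 0.42 (adjusted p = 0.0986).

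Negative differences were found for 28 of the 57 genes, and none passed. H3C11 had the largest, at -0.37 (SE 0.18, adjusted p = 0.370 by limma), followed by H2BC9 at -0.20 (adjusted p = 0.347) and H4C2 at -0.18 (adjusted p = 0.447). R3 carried much of each. Without its selected array H3C11 differed by -0.23 (adjusted p = 0.643), and without both arrays of R3 H3C11 differed by -0.21, H2BC9 by -0.12 and H4C2 by -0.10. H2BC9 measured 12.63, 12.15, 12.48, 12.34 and 12.42 in the selected arrays of R1, R3, R5, R6 and R7, against 12.76, 12.69, 12.60, 12.52 and 12.46 in their stable arrays. The selected value was the lower in 5 of 5 sublines, the reverse of H2BC21 and H2BC12. Over the 57 genes, 10 had the selected value higher in all 5 sublines and 3 had it lower in all 5. No share over all genes was worked out for this, so these counts do not set the histone genes apart.

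The 23 H2A and H2B genes with an octamer had a median of 0.027 for selected minus parental and 0.016 for selected minus stable, against 0.035 and 0.023 in the 6 genes without it. Many clustered genes lie head to head and share the stretch between their starts, and 10 such pairs were found with starts within 1000 bases of each other, 9 of them an H2A with an H2B gene. In 1 of them H2BC21 differed by 0.99 between selected and stable cells while its neighbour H2AC20, an H2A gene, differed by -0.11 (adjusted p = 0.636 by limma). In another H2BC11 and H2AC11 differed by 0.41 and 0.25, and in yet another H2AC17 and H2BC17 by 0.32 and 0.18. Only H2BC21 among these passed without the block. The rows of H2BC11, H2AC17 and H2BC17 were not above background.

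H2BC12 and H2BC21 are also known to yield polyadenylated RNA in addition to the stem-loop form, and RefSeq gives them longer spans than most clustered genes. A split by span, made after the values were seen, put H2BC12, H2BC21, H2BC4 and H2BC5 over 1000 bases and the other 53 genes at 386 to 797 bases. All 4 long genes had a difference above 0 in selected against parental cells (median 0.23) and in selected against stable cells (median 0.26), where 27 and 25 of the other 53 did (medians 0.018 and -0.013). In stable against parental cells 1 of the 4 did (median -0.026), and 24 of the other 53 (median -0.012). All 4 are H2B genes and include both genes that passed, so span cannot be told apart from class. Of all 17 H2B genes, 15 were above 0 in selected against parental and 10 in selected against stable cells. H2BC5 differed by 0.10 and 0.010 and H2BC4 by 0.16 and 0.18, and neither passed. The annotation places H4C9 within the span of H2BC12, and H4C9 differed by -0.033 and -0.045. Since the split followed the values, no test was made of it, and the form of RNA measured was not tested.

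Rows that name several histone genes fall outside the rule but bear on how far a value belongs to 1 gene. A row of H2BC18, H2BP1 and H2BC21 measured 9.03, 10.11, 9.07, 9.84 and 9.72 in the selected arrays of R1, R3, R5, R6 and R7, against 9.22, 9.09, 9.28, 9.37 and 9.26 in their stable arrays and 9.24, 9.10, 9.22 and 9.19 in the parental arrays. It was high in selected R3, R6 and R7, as the H2BC21 row was, but it was not low in stable cells. A row of H2BC18 and H2BP1 without H2BC21 measured 6.82, 7.46, 6.73, 7.73 and 7.39 in selected arrays, in the same order. It ran from 6.905 to 7.08 in stable and from 6.67 to 7.29 in parental arrays. Another row of them ran from 6.34 to 6.79 in selected, 6.49 to 6.83 in stable and 6.48 to 6.62 in parental arrays. Both were below the background threshold on every array. Which gene gave the rise in the row of H2BC18, H2BP1 and H2BC21 was not tested. A row of H2BC19P, H2BC20P and H2BC21 ran only from 12.60 to 12.73 in selected, from 12.67 to 12.79 in stable and from 12.59 to 12.78 in parental arrays. The rows that name H2BC21 thus disagree with each other. H4C14 and the row of H4C15 with H4C14 disagree as well. The shared row measured 8.77, 10.31, 9.26, 10.36 and 9.83 in selected arrays, against 9.07, 8.92, 9.12, 9.03 and 8.80 in stable arrays, and its difference of 0.72 did not pass (adjusted p = 0.196 by limma). The H4C14 row differed by -0.12 (adjusted p = 0.694).

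**Figure D4:**
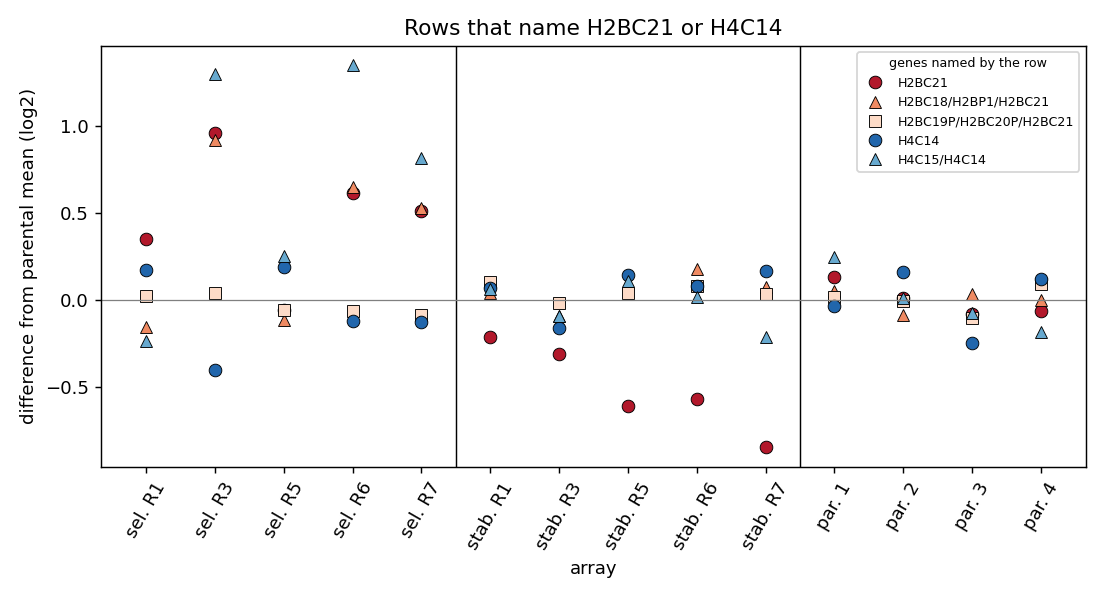
Difference from the parental mean (log2) on each of the 14 arrays for 5 rows that name H2BC21 or H4C14, alone or with other genes. The row of H4C15 and H4C14 and 2 of the 3 rows with H2BC21 are high on the selected arrays of R3, R6 and R7, while the row of H2BC19P, H2BC20P and H2BC21 stays near 0.

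Between the 5 sublines, with growth condition as a term, 0 of the 57 genes passed by limma, where 0.12% of all genes did, and 12 of the 57 had an unadjusted p under 0.05, against 15.8% of all genes. The smallest adjusted p was that of H4C4 (0.104), an H4 gene named here after its values were seen. It measured 7.73 and 7.34 in the selected and stable arrays of R1, 8.33 and 7.94 in those of R3, 7.998 and 7.78 in those of R5, 8.41 and 8.18 in those of R6 and 8.12 and 7.96 in those of R7. R1 was the lowest and R6 the highest in both states. As a description, the correlation of deviations from group means over the 14 arrays had a median of 0.13 over pairs of the 57 genes and 0.36 over pairs of the 31 genes above background.

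Genes that make or process histone mRNA were measured as a separate list, of which 22 of 24 were found. In selected against parental cells 2 were higher, where 5.03% of all genes were, and 1 lower, where 1.89% were, with a median of 0.087 against -0.013 over all genes. NPAT, the cyclin E and CDK2 substrate, was higher by 0.43 (SE 0.12, adjusted p = 0.0491 by limma) and SLBP, which binds the stem-loop, by 0.39 (SE 0.10, adjusted p = 0.0391). SYMPK, the scaffold of the complex that cleaves histone pre-mRNA, was lower, at -0.47 (SE 0.10, adjusted p = 0.0218). SLBP measured 10.84, 10.43, 10.48, 10.38 and 10.56 in the selected arrays of R1, R3, R5, R6 and R7, against 10.20, 10.26, 9.995 and 10.13 in the parental arrays. All selected arrays lay above all parental arrays. SYMPK ran from 8.96 to 9.16 in selected and from 9.20 to 9.71 in parental arrays. CASP8AP2, which works with these in histone pre-mRNA processing, differed by 0.21 (adjusted p = 0.460, and 0.14 without parental replicate 3), and ZNF473, a partner of the U7 particle, by 0.36 (adjusted p = 0.102).

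The 3 calls each stood near the threshold. That of NPAT was lost in 9 of 18 alternative settings, among them those without parental replicate 1, 3 or 4 (0.43, 0.34 and 0.43) or without the selected array of R1, R3 or R7 (0.40, 0.43 and 0.39). That of SLBP was lost without parental replicate 1, 3 or 4 (0.41, 0.34 and 0.38) or the selected array of R3, R5 or R7 (0.42, 0.40 and 0.38). That of SYMPK was lost without parental replicate 1, 2 or 4 (-0.45, -0.42 and -0.41) or the selected array of R7 (-0.44). In stable against parental cells 0 of the 22 passed by limma. In selected against stable cells SYMPK was the gene that passed, at -0.37 (SE 0.074, adjusted p = 0.0285), a call lost in 11 of 26 settings, with adjusted p from 0.0102 to 0.534 and values from -0.45 to -0.34.

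Histone genes outside the clusters are made through the cell cycle or in specialised roles, and 10 of 13 were measured. H3-3B, which encodes the replacement histone H3.3, was lower in selected than in parental cells at -0.36 (SE 0.087, adjusted p = 0.0304 by limma). Its difference of stable from parental cells was larger, at -0.52 (SE 0.12), without passing (adjusted p = 0.312). MACROH2A1 was higher in selected than in stable cells by 0.27 (SE 0.063, adjusted p = 0.0483). H2AX and H2AZ1 differed by -0.0037 and 0.031 from parental cells (adjusted p = 0.991 and 0.900). Of 22 histone chaperones RBBP7, which binds H4, was higher by 0.36 (adjusted p = 0.0344) and NASP, a chaperone of H3 and H4, was lower at -0.41 (adjusted p = 0.0379) in selected than in parental cells. These are 0 higher and 1 lower of 10, and 1 higher and 1 lower of 22, where 5.03% of all genes were higher and 1.89% lower. None of these calls held in all settings. H3-3B, NASP and RBBP7 each lost theirs in 7 of 18 settings and MACROH2A1 in 20 of 26, with the block among them (adjusted p = 0.0618). In stable against parental cells 0 of the 10 and 0 of the 22 passed.

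Of 29 genes of S phase and CDK2 regulation, 4 were higher and 1 lower in selected than in parental cells, and 4 were higher and 0 lower in selected than in stable cells. Of all genes, 5.03% were higher and 1.89% lower in the first comparison and 1.54% and 0.614% in the second. Against parental cells CCNE1 differed by 0.45, CCNE2 by 0.74, the CDK2 inhibitor CDKN1A by 0.59 and E2F1 by 0.31, and the helicase subunit MCM7 by -0.46. Adjusted p ran from 0.0236 to 0.0497 by limma, and these calls were lost in 9, 6, 6, 5 and 6 of 18 settings. CDK2 itself differed by 0.33 (adjusted p = 0.0964). Against stable cells CDKN1A, E2F1, MCM2 and the nuclease FEN1 differed by 0.64, 0.33, 0.33 and 0.25, and these calls were lost in 11, 17, 18 and 20 of 26 settings. With the block FEN1 did not pass (adjusted p = 0.0633).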

How the data were processed

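Per the labels' protocols, biotin-labelled RNA of 14 OVCAR-3 samples was run on Affymetrix whole-transcript arrays. The deposited values were used as log2 signal, and base 2 was taken from their range, 4.34 to 14.9. How background, scaling and probe summaries were handled is not stated in the labels. Array medians ran from 7.54 to 7.68, and the number of arrays limits precision.

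Of 32295 rows, 19148 name 1 gene, 1376 name several and 11771 are unnamed in this work. Current symbols came from gene IDs in RefSeq (GRCh38.p14), which held 19118 of the 19148, and the highest-mean row per gene gave 18398 genes. Histone and marker lists were chosen with earlier results of these data known, so counts over them are descriptions. H4C16 is no member, since HIST4H4 falls outside the rule. The genes named are those called, the members with the highest or lowest mean or widest range of each class, the 3 largest rises and falls per comparison, those with an outlying array, and the members of the other lists that were called or had the smallest p. Of the last, only some are printed, picked after their values were seen. A promoter table gave 1 entry per gene, the first listed.

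Two-sided limma tests (version 3.58.1, R 4.3.3, lmFit then eBayes) were fitted once per pair of groups. Adjustment by Benjamini-Hochberg covered all 18398 genes, and the threshold was 0.05. Sublines were compared by an F test on the 10 resistant arrays, with selected or stable as a covariate. Selected and stable arrays of the same number are the same subline by the labels, which pairs them. Across genes, paired deviations from the group means correlated at 0.64 for R1, 0.55 for R6, 0.37 for R5, 0.050 for R3 and -0.47 for R7. Alternatives were quantile normalization, array weights, median centring, trended and robust variance, dropping genes under the 40th percentile of signal, averaging all rows of a gene, 1 fit of all 14 arrays, the olfactory receptor mean as a covariate, rows naming several histones, the subline block and leaving out each array. Leaving out both arrays of a subline, and adding the olfactory receptor covariate to the block, were chosen after seeing the data. The fits were tested on simulated data. Figures were drawn with matplotlib 3.10.9.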

Additional observations from a re-analysis of the deposited data

Results flagged for a closer look

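A gap test was applied to each of the 57 genes in each of the 3 groups, and 13 of the 171 combinations had 1 array standing apart from the rest of its group, 5 of them in selected, 2 in stable and 6 in parental arrays. Chance gives about 1 in 20.

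Among selected arrays, R3 was low for H2AC20 at 10.93 (the others 11.28 to 11.42) and high for H3C12 at 6.41 (the others 5.86 to 5.999). R1 was high for H2BC4 at 10.55 (the others 10.05 to 10.17) and for H4C5 at 11.13 (the others 10.90 to 10.96). R7 was low for H3-4, an H3 gene known from testis, at 7.10 (the others 7.39 to 7.44). Among stable arrays, R1 was high for H2AC25 at 6.17 (the others 6.08 to 6.10) and R3 was low for H4C14 at 11.82 (the others 12.06 to 12.15).

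Among parental arrays, replicate 1 was high for H1-4 at 13.89 (the others 13.80 to 13.81) and for H2BC14 at 9.03 (the others 8.63 to 8.70), and low for H4C9 at 6.58 (the others 6.60 to 6.61). Replicate 2 was high for H2BC19P at 7.22 (the others 7.13 to 7.14), replicate 3 was low for H2AC20 at 11.28 (the others 11.45 to 11.48) and replicate 4 was high for H1-5 at 6.32 (the others 6.09 to 6.13). None of these genes passed a test, and the cause of each value was not tested.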

How the results depend on the processing

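Calls among the 57 genes were few and moved with the processing, and the cause was not tested. For selected against parental the count of 1 became 2 with array weights, 2 with quantile normalization, 2 with the 40th percentile filter, 0 with all 14 arrays in 1 fit and 3 with the olfactory receptor covariate, and 0 to 2 with 1 array left out. For stable against parental 2 passed with array weights and 0 with 1 array left out. For selected against stable the count of 1 became 5 with array weights, 2 with quantile normalization, 2 with the filter, 3 with all 14 arrays in 1 fit, 3 with subline as a replicate block, 0 with the block and the olfactory receptor mean, 0 without both arrays of R3, 0 without those of R6 and 0 without those of R7, and 0 to 3 with 1 array left out. Between sublines 3 passed with trended and robust variance. Of all genes, 4.92% passed with the block. For the other alternative settings the share of all genes that passed is not given here. Their counts therefore do not show whether the 57 genes differ from all genes. The median difference of the 57 genes stayed near zero. Selected against parental gave -0.0147 with array weights and -0.0161 to 0.0274 with 1 array left out. Stable against parental gave -0.0389 with array weights and -0.0298 to 0.00591 with 1 array left out. Selected against stable gave 0.0376 with array weights, -0.0253 with the filter and -0.0153 to 0.0207 with 1 array left out. H2BC14 in stable against parental ran from -0.0298, without the stable array of R3, to 0.389, without that of R1. The block changed no other call of a histone gene in the clusters. Scaling moved the median of all genes by less than 0.1. Of the 57 rows, 26 were not above background, and the upstream steps are unknown.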
